A study of Aspergillus nidulans with 6 samples.

Results

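The regions described here are places in the *Aspergillus nidulans* genome where AtfA had a ChIP-seq peak in 3, 4 or 5 of 6 conidial libraries. The peaks of the 6 lists, 2723 in all, were merged wherever they overlapped by at least 1 bp, which gave 707 regions. Of these, 200 met the condition: 63 were held by 3 libraries, 69 by 4 and 68 by 5. A further 250 regions were held by all 6 libraries and 257 by 1 or 2. The number of libraries chose the regions, so it is given as a description and not as a finding.

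All libraries came from conidia, the asexual spores, of the *atfA*::3XFLAG strain (alleles pyrG89 and pyroA4, with ΔatfA::AfupyrG+ and atfA-3XFLAG::pyroA+, in a veA+ background). In this strain the native *atfA* gene is deleted and a FLAG-tagged copy with its own promoter and the *trpC* terminator was put back on a vector. Conidia were taken from surface cultures on NMM agar after 2 d without treatment, after 3 d without treatment, or after 3 d with 0.04 mM menadione sodium bisulfite (MSB), with 2 replicates per condition. These groups are called untreated 2 d, untreated 3 d and MSB 3 d here. The plots write Untr. for untreated conidia and MSB Tr. for treated ones. Menadione is a quinone that generates superoxide inside cells and is used as an oxidative stress agent. The study calls the replicates of a condition biological replicates. Neither it nor the sample descriptions say whether they were separate cultures, so p-values measure only the spread between these libraries. No library of an untagged strain or of input chromatin was analysed here.

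AtfA is a bZIP transcription factor of the ATF/CREB family and the counterpart of Atf1 of *Schizosaccharomyces pombe*. Factors of this family bind as dimers to CRE-type elements in promoters, and in filamentous fungi they act downstream of the HogA/SakA MAP kinase in spore formation, dormancy and stress tolerance. A peak caller reports places where the immunoprecipitated fragments pile up above a threshold. A region that is missing from a list is therefore one that was not called there, and weak binding below the threshold cannot be told apart from no binding.

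The lists held between 434 and 473 peaks each and covered between 168 and 211 kb. Scores are whole numbers whose scale can differ from list to list, so each was turned into a percentile within its own list, with 100 for the highest score. The lists hold no read counts, and the depth behind each peak is unknown.

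The libraries held unequal parts of the 200 regions. Untreated 2 d replicate 1 had a peak at 140 of them and replicate 2 at 102. Untreated 3 d replicate 1 held 120 and replicate 2 held 145. MSB 3 d replicate 1 held 161 and replicate 2 held 137. Untreated 2 d replicate 2 was thus the lowest library with 51.0% of the regions and MSB 3 d replicate 1 the highest with 80.5%, and the ranges of the conditions overlapped. These libraries also had the shortest list (434 peaks) and the list that covered most sequence (211 kb), and the part of list length and covered sequence in the difference was not tested.

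**Figure D1:**
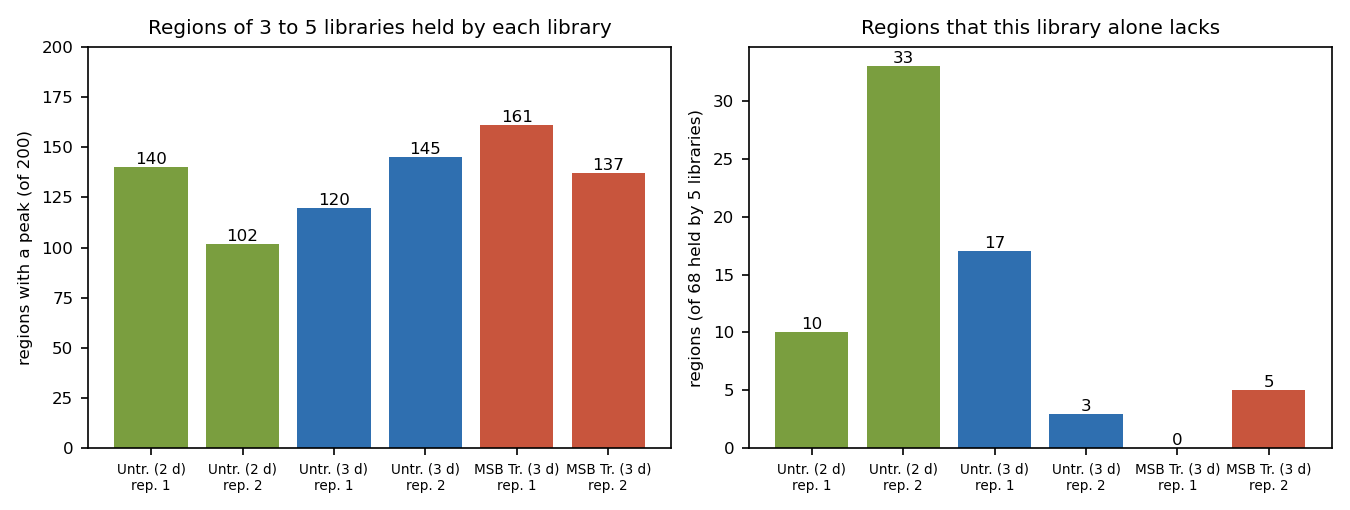
Number of the 200 regions at which each library had a peak (left) and number of the 68 regions held by 5 libraries that each library alone lacked (right), with 1 bar per library coloured by condition. Counts on the left run from 102 to 161 and both replicates of a condition differ by about as much as the conditions do, while 33 of the 68 single absences on the right belong to untreated 2 d replicate 2 and 0 to MSB 3 d replicate 1.

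The number of regions held is given without a test, since presence in the lists chose the regions. MSB 3 d libraries held 149 ± 17.0 regions (SD, n = 2) and untreated 3 d libraries 132.5 ± 17.7 (SD, n = 2). The difference was 16.5 regions. Untreated 2 d libraries held 121 ± 26.9 (SD, n = 2) and thus 11.5 fewer than untreated 3 d. Against all 4 untreated libraries the MSB 3 d libraries held 22.25 more regions. The first difference turned to -6 without MSB 3 d replicate 1, and the second to -11.5 without untreated 2 d replicate 2 and to -2 without untreated 3 d replicate 2.

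When 1 library alone lacked a region, it was most often untreated 2 d replicate 2. Among the 68 regions held by 5 libraries, untreated 2 d replicate 2 was the absent one at 33, untreated 3 d replicate 1 at 17 and untreated 2 d replicate 1 at 10. MSB 3 d replicate 2 was absent at 5 and untreated 3 d replicate 2 at 3. MSB 3 d replicate 1 was never the single absent library. Of the 68, 63 had a peak in both MSB 3 d libraries. There are 4 untreated libraries and 2 of MSB 3 d, so more single absences can fall on untreated ones. The library with 33 of them, untreated 2 d replicate 2, also had the shortest list (434 peaks). The part of either in these counts was not tested.

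Among regions held by 4 libraries, the most frequent absent pairs crossed conditions. At 12 regions untreated 2 d replicate 2 and untreated 3 d replicate 1 were absent together, and at 10 untreated 2 d replicate 1 and MSB 3 d replicate 2. Both libraries of 1 condition were absent at 18 of the 69. Among regions held by 3 libraries the most frequent pattern, with 11 regions, was a peak in untreated 2 d replicate 1 and both MSB 3 d libraries alone.

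Counted by condition, 137 of the 200 regions (68.5%) had a peak in at least 1 library of each condition and 63 (31.5%) lacked 1 condition altogether. Untreated 2 d had a peak in both replicates at 56 regions, in 1 replicate at 130 and in neither at 14. The counts for untreated 3 d were 89, 87 and 24. For MSB 3 d they were 123, 52 and 25. The replicates of untreated 2 d were thus split at most of the regions, whereas those of MSB 3 d were more often both present. A region held by 5 libraries cannot lack a condition, so the choice of 3 to 5 libraries fixes these counts in part. They are a description of the set and nothing further was read from them.

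A whole condition could be absent while another was complete. Of the 200 regions, 22 were held by both MSB 3 d libraries and neither untreated 3 d library, beside 4.24% of all 707 regions. The reverse, both untreated 3 d libraries and neither MSB 3 d library, was found at 18 (4.53% of all regions). A peak in both MSB 3 d libraries and neither untreated 2 d library was found at 11 (2.69% of all regions), and both untreated 2 d without MSB 3 d at 15 (2.69% of all regions). Both untreated 3 d without untreated 2 d was found at 6 (2.83% of all regions), and both untreated 2 d without untreated 3 d at 9 (1.84% of all regions). All 4 untreated libraries without either MSB 3 d library held 8 regions, which are 1.13% of all regions. Each contrast was found in both directions, and since the choice of 3 to 5 libraries fixes in part how often such patterns can arise, nothing further was read from the counts.

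The 8 regions held by every untreated library and lacking in both MSB 3 d libraries included the highest ranked ones of the set. The first was chrV:2010741-2011240 (500 bp, coordinates of the peak lists on *A. nidulans* FGSC A4, JGI MycoCosm), to which no gene could be tied. Its percentiles were 55.1 and 98.2 in untreated 2 d replicates 1 and 2, and 100 and 87.0 in untreated 3 d replicates 1 and 2. It held the highest score in the list of untreated 3 d replicate 1, and its mean percentile of 85.1 was the highest of all 200 regions. The nearest peaks of the MSB 3 d libraries lay 10900 and 84580 bp away.

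The second was tied to *ran1* (AN4935), a serine/threonine protein kinase gene whose *S. pombe* counterpart holds back entry into meiosis (chrIII:506721-507220). Its percentiles were 82.1 and 68.3 in the untreated 2 d libraries and 81.7 and 85.5 in the untreated 3 d libraries, with a mean of 79.4. All 4 values lay in the upper part of their lists, and the nearest MSB 3 d peaks were 13620 and 11880 bp from the region. Summits of the 4 peaks lay within 50 bp of each other.

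Other regions without a peak in MSB 3 d were lower or less even. The region at chrVI:3407101-3407920, the outermost one on its chromosome in the lists, had 43.4, 78.9, 88.6 and 35.6 in the order of the untreated libraries. AN0183, annotated as a putative molybdopterin-binding protein, had 41.0, 64.2, 65.5 and 74.6 (chrVIII:4348461-4348860). The region shared by AN7138, a Major Facilitator Superfamily transporter gene, and AN7139 had 48.0, 0.461, 48.7 and 17.6, so it was near the bottom of the list of untreated 2 d replicate 2. AN1654 had a mean percentile of 27.1, a region at chrIV:1952381-1952840 had 18.8 and AN6059 had 8.0. The 8 regions thus spanned nearly the whole range of the set, from a mean of 8.0 to 85.1.

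Absence in both untreated 3 d libraries with presence in the other 4 was found at 7 regions, all with mean percentiles between 23.6 and 46.4. The highest was chrV:1772541-1773060, without a tied gene. The region between *orlA*, which encodes trehalose-6-phosphate phosphatase, and its neighbour AN3442 (chrVI:708061-708660) had 46.5 and 50.1 in the untreated 2 d libraries and 23.2 and 46.9 in the MSB 3 d libraries. Trehalose is a protective sugar of resting conidia. *fimA*, the gene of the actin-bundling protein fimbrin, had 28.0 and 50.1 in untreated 2 d and 12 and 18.8 in MSB 3 d. *cycA*, encoding cytochrome c of the respiratory chain, had 9.41 and 21.0 in untreated 2 d and 19.6 and 44.2 in MSB 3 d. For *fimA* both untreated 2 d values were above both MSB 3 d values, while for *cycA* they overlapped. AN7018 and AN0454, of unknown function, and a region at chrVI:738041-738520 completed the group, and at the last one the untreated 3 d lists had peaks 500 and 480 bp away.

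Only 3 regions lacked both untreated 2 d libraries and had a peak in the other 4. AN11378 had 46.2 and 72.2 in untreated 3 d and 37.0 and 24.1 in MSB 3 d, and AN1578 had 59.7 and 56.8 against 35.1 and 13.0. At both, the untreated 3 d percentiles lay above those of MSB 3 d. The third, at chrVIII:4028241-4028500, had 40.7 and 4.99 in untreated 3 d and 33.6 and 12 in MSB 3 d.

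**Figure D2:**
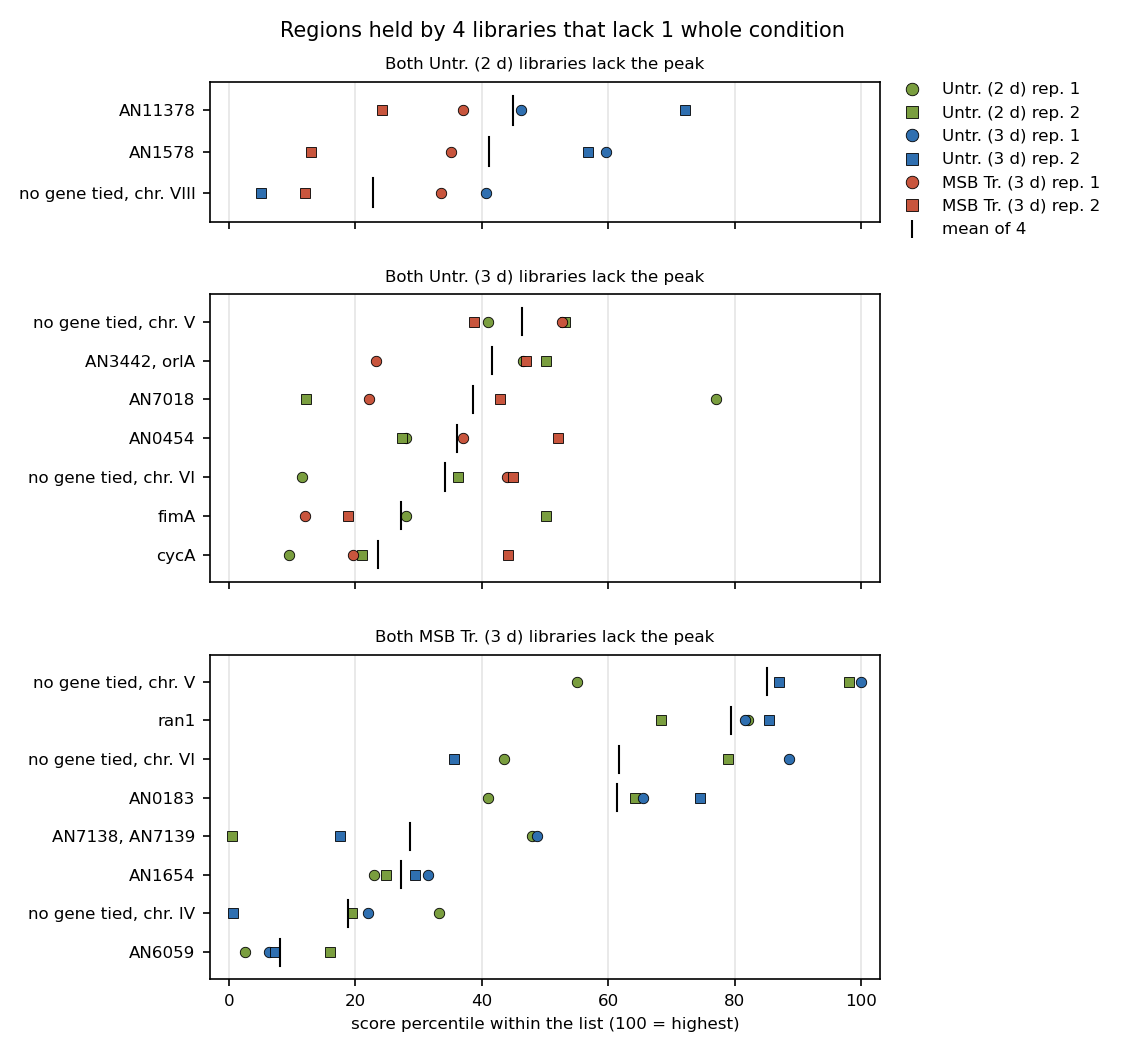
Within-list score percentile (horizontal axis, 100 = highest score of that list) at the 18 regions held by 4 libraries in which both libraries of 1 condition lack the peak, in 3 panels by the absent condition. Each point is 1 library, circles are replicate 1 and squares replicate 2, and the black line is the mean of the 4. The regions lacking MSB 3 d run from a mean of 8.0 to 85.1, and those lacking untreated 3 d from 23.6 to 46.4.

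Of the 63 regions held by 3 libraries, 45 lacked a whole condition, and 18 had 1 peak from each condition. Among the 45 the absent condition was MSB 3 d at 17, untreated 3 d at 17 and untreated 2 d at 11. The highest mean percentile, 64.7, was found at chrVI:1148781-1149260, with 44.9 in untreated 2 d replicate 2 and 81.7 and 67.4 in the untreated 3 d libraries. *mdm34*, encoding a subunit of the complex that tethers mitochondria to the endoplasmic reticulum, followed with 56.3. It had 63.8 in untreated 2 d replicate 1, and 26.7 and 78.2 in the MSB 3 d libraries (chrVII:2709741-2710200). In this region the missing libraries had their nearest peaks at least 29140 bp away.

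Light and development genes were among these regions of 3 libraries. *cryA*, a photolyase gene of the cryptochrome family, had 22.9 in untreated 2 d replicate 1 and 53.4 and 42.7 in the untreated 3 d libraries, with no peak after MSB (chrVIII:3714321-3714620). *veA*, the velvet regulator that balances sexual and asexual development according to light, shared untreated 2 d replicate 1 with *cryA* but had MSB 3 d peaks in place of the untreated 3 d ones. Its percentiles were 6.03 in untreated 2 d replicate 1 and 35.5 and 24.1 in the MSB 3 d libraries (chrVIII:1670061-1670320). *sodA*, the gene of Cu/Zn superoxide dismutase, had 3.69 in untreated 2 d replicate 2 and 8.83 and 50.8 in the MSB 3 d libraries (chrVIII:4172781-4173060). Both *veA* and *sodA* had 1 peak in an untreated library and a peak in both MSB 3 d libraries, and in each case the untreated value was the lowest. These genes were picked by name, and a pattern of single regions carries no test here. *cryA*, *veA* and *sodA* were all tied by placement between neighbouring genes, which could not be checked.

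The regions of 5 libraries reached mean percentiles from 11.7 to 71.4. The highest, chrVIII:2852861-2853380, lacked a peak in untreated 2 d replicate 2 only, and had 67.2 in the other untreated 2 d library, 73.8 and 73.3 in untreated 3 d and 68.8 and 74.1 in MSB 3 d. The 5 values lay within a few percentiles of each other and the summits within 10 bp, and yet the nearest peak of the absent library was 78020 bp away. No gene could be tied to it. The next, chrI:2326381-2327100, lacked untreated 3 d replicate 1 and had 73.2, 48.4, 52.3, 73.3 and 80.6 in the others.

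Among the 10 highest regions of 5 libraries, 5 could be tied to a gene. AN2404, of unknown function, lacked untreated 2 d replicate 1 and had a mean percentile of 64.9. *hk-8-3*, a histidine kinase gene of the phosphorelay that feeds stress signals to the MAP kinase pathway, lacked the same library. It had 43.2 in untreated 2 d replicate 2, 73.8 and 74.6 in untreated 3 d, and 60.8 and 51.3 in MSB 3 d (chrI:3277441-3277880). *gsyA*, the glycogen synthase gene, again lacked untreated 2 d replicate 1 and had 57.0, 70.7, 35.6, 64.5 and 26.7 in the other libraries. AN6169 and AN6220 lacked untreated 2 d replicate 2, with means of 55.8 and 50.8. In these 5 the absent library was 1 of the untreated 2 d pair, as it was at 43 of all 68 regions of 5 libraries (63.2%). Among the 10 highest, chrI:2326381-2327100 lacked untreated 3 d replicate 1 and chrVIII:426121-426620 lacked MSB 3 d replicate 2, both without a tied gene.

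At the other end, 5 regions of 5 libraries had mean percentiles between 11.7 and 21.5. *lkh1*, a dual specificity kinase gene, was the lowest with 36.0 and 2.76 in untreated 2 d, 11.5 in untreated 3 d replicate 2, and 0.442 and 7.86 in MSB 3 d. Its summits were spread over 300 bp. *ptcD*, a serine/threonine phosphatase gene, had 21.0, 26.7, 15.6, 12.6 and 15.4, and AN3600 had a mean of 21.5. AN3179 and a region without a gene, which lies 260 bp away from it, had 12.4 and 14.2. These low regions were called in 5 lists even though 22 of their 25 percentiles were below 25.

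Percentiles were higher in regions that more libraries held. The median of the mean percentile was 24.6 for regions held by 3 libraries, 34.4 by 4 and 38.7 by 5. Just outside the limits it was 20.5 for regions held by 2 libraries and 68.7 for those held by 6. The 200 regions together had a median of 33.1, with quartiles of 22.5 and 40.4, and the step from 5 to 6 libraries was the widest. Since the number of libraries depends on which peaks pass the caller's threshold, this comparison of ranks between classes is a description and carries no test.

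Within single libraries the median percentile of member peaks was 31.7 and 35.4 in untreated 2 d, 38.5 and 27.7 in untreated 3 d, and 29.2 and 29.7 in MSB 3 d. Peaks at the regions of all 6 libraries had medians between 67.6 and 71.5, and those at regions of 1 or 2 libraries between 10.7 and 17.7, so the order of the 3 classes was the same in all 6 lists. The mean was 29.5 ± 0.337 (SD, n = 2) in MSB 3 d and 33.1 ± 7.61 (SD, n = 2) in untreated 3 d, a difference of -3.61 that was smaller than the spread in untreated 3 d (exact permutation p = 1). Between untreated 3 d and untreated 2 d the difference was -0.44 (exact permutation p = 1). Against all untreated libraries it was -3.83 (exact permutation p = 0.333). These tests are two-sided, and the smallest p they allow is 0.333 for 2 against 2 libraries and 0.0667 for 2 against 4. Only called peaks have a percentile and the calls chose the regions, so nothing was concluded from these tests. After Benjamini-Hochberg adjustment every exact permutation p of the percentiles and widths was 0.9 or 1. The first difference turned to 1.18 without untreated 3 d replicate 1, and the second changed sign when any of 4 single libraries was left out (0.86 to 4.49).

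**Figure D3:**
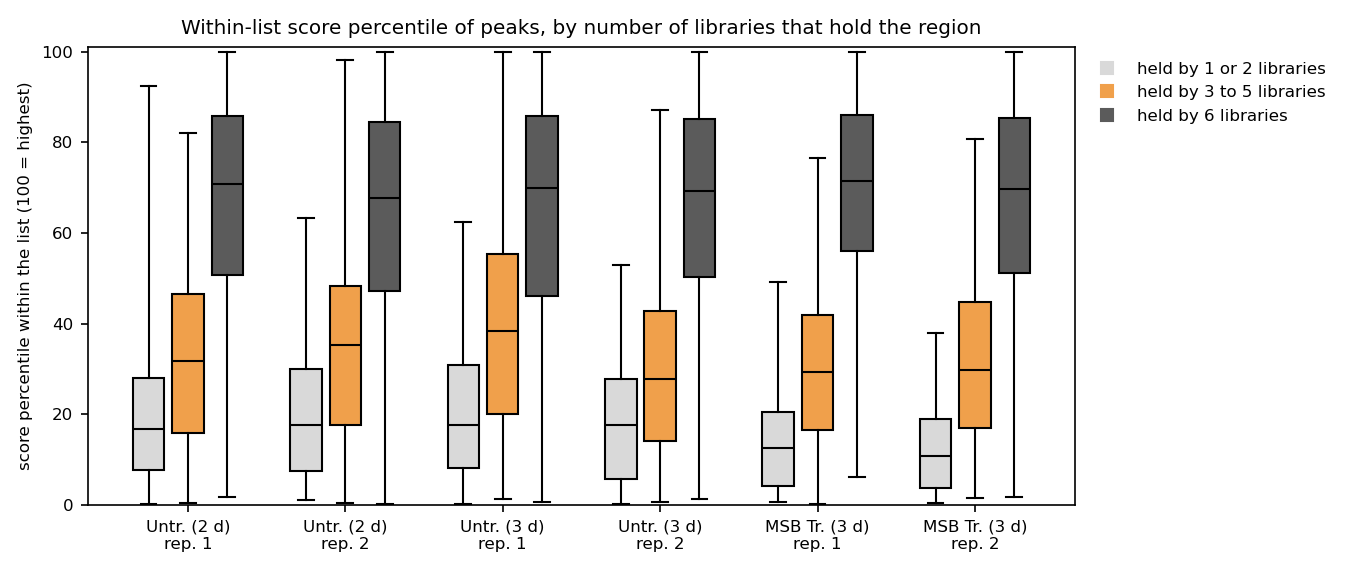
Within-list score percentile of every peak (vertical axis, 100 = highest score of that list) in each library, for peaks in regions held by 1 or 2, by 3 to 5 and by 6 libraries. Boxes span the quartiles with the median as a line, and whiskers reach the lowest and highest peak. In every library the box of the regions held by 3 to 5 libraries has its median, 27.7 to 38.5, between those of the other classes.

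Rank and number of libraries were not the same thing, however. Of the 200 regions, 17 had a mean percentile above 50 and 14 had at least 1 peak above 75, beside 200 and 174 of the 250 regions held by all 6. At 97 of the 200 regions all peaks lay at or below 50. The spread within a region was wide, with a median difference of 31.3 percentiles between the highest and the lowest library and a maximum of 75.9. That maximum was found at chrVIII:2341661-2342120, which had 85.8 in untreated 2 d replicate 2 and 9.98 in untreated 3 d replicate 2.

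The regions were intermediate in width as well. Their merged width had a median of 380 bp, from 220 to 1480 bp, beside 600 bp for regions held by 6 libraries and 260 bp for those held by 1 or 2. Merging more peaks can only widen a region, so single peaks were compared too. The median width of a member peak was 260 and 300 bp in untreated 2 d, 260 and 260 bp in untreated 3 d, and 300 and 280 bp in MSB 3 d. Over all peaks of a list the medians were 300 and 340 bp, 340 and 340 bp, and 400 and 360 bp in the same order. Wider peaks in MSB 3 d than in untreated 3 d were thus a trait of the whole lists and not particular to these regions. Starts and ends in the files are multiples of 20 bp and no peak is narrower than 200 bp, so the member medians are a few steps above the minimum. MSB 3 d peaks were 30 bp wider than those of untreated 3 d on average (exact permutation p = 0.333), which did not pass the test, although 2 against 2 libraries cannot give a smaller p. The differences were -20 bp for untreated 3 d against untreated 2 d (exact permutation p = 1) and 20 bp for MSB 3 d against all untreated libraries (exact permutation p = 0.4), and the former turned to 5 bp without untreated 2 d replicate 2. The latter was 47.5 bp with the 300 best-scored peaks of each list (exact permutation p = 0.0667, the smallest possible), 10 bp without MSB 3 d replicate 1 and 47.5 bp without MSB 3 d replicate 2. Starts and ends also decided which peaks merged. The width tests are thus not independent of the choice of regions, and nothing was concluded from them.

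The peaks of a region were joined by overlap, so some closeness of their summits was built in. The distance between the outermost summits, with the best peak of each library, had a median of 60 bp. It was at most 100 bp at 142 of the 200 regions (71.0%). The share was 81.6% for regions held by 2 libraries and 67.2% for those held by 6. It fell as more libraries were compared, so the classes are unlike in this measure. At 10 regions 1 library had more than 1 peak. Of these, AN3179 had the widest summit spread with 950 bp, in a region 1340 bp long where MSB 3 d replicate 2 had a peak of 1200 bp. The longest region, 1480 bp at chrVI:3405501-3406980, was 1 peak of untreated 3 d replicate 1 that spanned smaller peaks of untreated 2 d replicate 2 and untreated 3 d replicate 2.

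Few of the absent libraries had another peak close by. The 200 regions had 395 absences, 1 for each library without a peak. In 0 of them did that library have another peak within 100 bp of the region, in 23 (5.82%) within 500 bp and in 249 (63.0%) none within 10 kb. The median gap was 17940 bp. The 23 near gaps belonged to 16 regions. Untreated 3 d replicate 1 had 8 of these gaps, which are 10.0% of its 80 absences. The share was 10.3% in MSB 3 d replicate 1 (4 of 39), and MSB 3 d replicate 2 had 0 of 63.

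**Figure D4:**
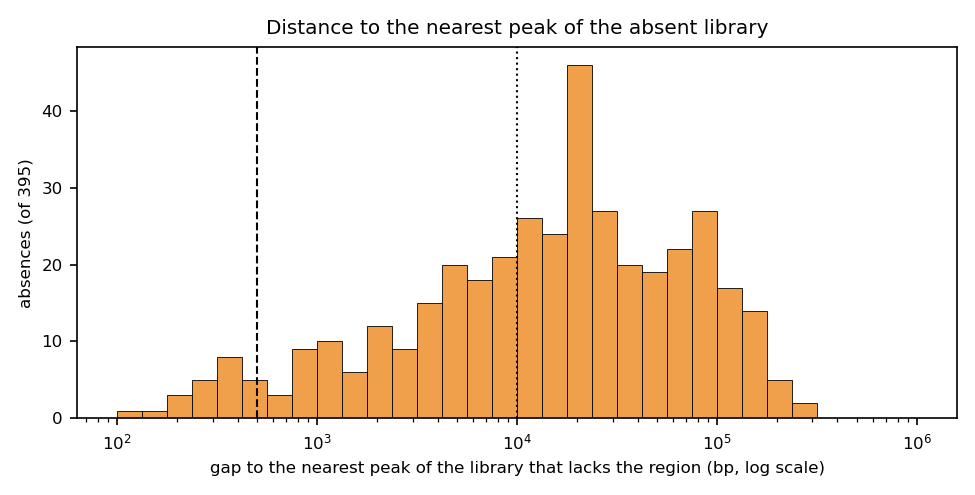
Distance in bp (log scale) from a region to the nearest peak of each library that lacks it, for all 395 absences. The dashed line marks 500 bp, with 23 absences at or below it, and the dotted line 10 kb, with 249 above it.

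Near gaps occurred where several regions lay side by side. The 2 regions tied to *ksp1*, a serine/threonine protein kinase gene, are chrVII:3379221-3380040, held by 5 libraries, and chrVII:3380341-3380900, held by 4. Untreated 3 d replicate 2 had 33.3 at the first and no peak at the second, 320 bp from its nearest peak. AN3203, an F-box protein gene, was likewise tied to 2 regions, which are held by 5 and 3 libraries. For *can1*, an arginine permease gene, the single absent library, untreated 2 d replicate 2, had a peak 460 bp from the region. Altogether 10 neighbouring pairs of the 200 regions lay within 1 kb of each other and 21 within 5 kb.

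The regions lay on all 8 chromosomes. They made up 19.8% of all regions on chromosome III (19 of 96) and 35.5% on chromosome VII (39 of 110), with the other chromosomes between. The gap to the nearest region held by 6 libraries had a median of 30920 bp, beside 33140 bp over all 707 regions. Within 1 kb of one were 12 regions (6.0%), beside 7.5% of all regions and 10% of those held by 6. Lying apart from regions that every library held was thus not particular to the set. Of the 16 outermost regions of the chromosomes in the lists, 5 were held by 6 libraries and 7 by 1 or 2. The other 4 were members, on chromosomes I, IV, VI and VII, where members are 200 of all 707 regions in the series. Of these 4, the ones on I and VI lacked both MSB 3 d libraries, the one on I also untreated 2 d replicate 1, and the ones on IV and VII lacked untreated 2 d replicate 1 and MSB 3 d replicate 2.

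Genes could be tied to 116 of the 200 regions (58.0%), beside 62.0% of those held by 6 libraries and 50.2% of those held by 1 or 2. Direct placement of a gene needed at least 4 listed distances, and the part of this in these shares was not tested. The other tied genes, such as *mdm34* and *fimA*, were placed between neighbouring genes, which could not be checked. A gene was tied to a region when the distances between peak centres and its transcription start, as listed by the study, fell on centres of deposited peaks. The 116 regions had 127 genes, and 12 regions were tied to more than 1 gene. Of all 428 genes tied to any region, 29.7% had a region held by 3 to 5 libraries as the one most libraries held. The gene lists that follow were drawn from genes that the study discusses, which its authors chose from these samples, and do not hold all of them. They are no independent evidence of a direction, and each share is read beside that of all tied genes. Of 115 tied genes on these lists, 37 had a region held by 3 to 5 libraries.

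Genes of signalling and developmental regulators were found both in the set and among the regions of all 6 libraries. Of 15 tied signal transduction genes 9 had a region held by 6 libraries and 3 by 3 to 5, namely *hk-8-3*, *ptcD* and *nnk1*. *nnk1*, a protein kinase gene, had 7.72 in untreated 2 d replicate 1 and 17.4 and 23.1 in the MSB 3 d libraries, the same set of libraries as *veA*. Of 9 tied transcription factor genes 3 were in the set. *fkhB*, a forkhead factor gene, had 44.8 in untreated 2 d replicate 1, 31.5 in untreated 3 d replicate 1, and 49.2 and 52.5 in MSB 3 d, and lacked the second replicate of each untreated condition. *vadZ*, a zinc cluster factor gene, had 52.5, 24.0, 55.3, 41.9 and 34.3, and lacked untreated 2 d replicate 2 alone. Of 14 tied light response genes 3 were in the set and 11 had regions held by 6. Beside *cryA* and *veA*, which also counts among the transcription factors, this was AN0604, a homologue of the *S. pombe* DNA repair endonuclease gene *uve1*, which had 46.5 and 4.95 in untreated 2 d and 55.4 in untreated 3 d replicate 1. *cryA* and AN0604 had no peak in an MSB 3 d library, whereas *veA* had one in both.

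Genes for protection, spore structure and reserves gave 6 regions of the set. Of 7 tied oxidative stress defence genes *sodA* alone was in the set and 5 were held by 6. Of 4 tied eisosome genes, which encode proteins under furrows of the plasma membrane, *pilB* was in the set and 3 were held by 6. *pilB* had 14.5 in untreated 2 d replicate 1, 26.7 in untreated 3 d replicate 1, and 54.5 and 54.1 in MSB 3 d, so its MSB values were above both untreated ones. Like *fkhB* it lacked the second replicate of each untreated condition. Of 8 tied genes for storage carbohydrates and polyols, *gsyA* and *orlA* were in the set and 4 were held by 6. Of 5 mitochondrial genes *cycA* and *mdm34* were in the set.

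Several genes of primary metabolism lay beside regions of the set. Of 11 tied genes of sugar metabolism 4 were in the set: *tpiB*, encoding triose-phosphate isomerase, and AN5907, a ribose-5-phosphate isomerase gene, which share 1 region, *galD*, encoding galactose-1-phosphate uridylyltransferase, and AN1428, an N-acetylglucosamine-6-phosphate deacetylase gene. The region of *tpiB* and AN5907 had 51.4, 40.7, 26.6 and 45.8 and lacked the second replicate of untreated 2 d and of MSB 3 d. *galD* shares its region with the F-box gene AN6183 and lacked untreated 3 d replicate 2 alone, with 42.4, 43.2, 57.2, 26.7 and 32.6 in the others. AN1428 had 63.8 in untreated 2 d replicate 1 and between 4.44 and 29.7 in the 4 libraries of the other conditions. Of 8 tied genes of citrate, glyoxylate and acetate metabolism 1 was in the set, the carnitine acetyltransferase gene *acuJ*, with even values of 22.9, 17.7, 20.5 and 17.9.

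All 4 tied genes of amino acid and choline metabolism were in the set. AN4901, a glutaminase gene, had 58.0 and 58.6 in untreated 2 d, 8.43 in untreated 3 d replicate 2 and 18.8 and 24.1 in MSB 3 d, so both untreated 2 d values were above all others. AN3829, a succinate-semialdehyde dehydrogenase gene, lacked the same library, untreated 3 d replicate 1, and had 48.0, 13.2, 20.6, 23.8 and 41.7. *codA*, the choline oxidase gene, had 17.4, 8.43, 50.1 and 16.9, and *gltA*, the glutamate synthase gene, had 15.9, 8.43 and 22.8, with a peak in 1 library of each condition. Untreated 3 d replicate 1 lacked the peak at all 4 genes, beside 80 of all 200 regions. This was seen after the values were known and carries no test.

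Of 8 tied genes for ubiquitin and protein turnover 6 were in the set and 1 was held by 6 libraries. The F-box genes, whose products choose substrates for ubiquitin ligases, were AN3203, AN5209, AN6183 and AN8051. AN8051 shares its region with AN8050 and with AN11039, a carbon-sulfur lyase gene. The region had 35.4, 31.8 and 32.2, with 1 peak in each condition. AN7366, a metallopeptidase gene, lacked untreated 2 d replicate 1 and had 39.3, 44.0, 28.6, 27.9 and 31.3. AN10461, a gene of the Ulp1 family of SUMO proteases, was among the lowest regions with 0.806, 8.43 and 6.07. With 4 and 8 genes these lists are short, and their shares were not tested.

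Transport and cell structure genes completed the lists. Of 14 tied transport genes 4 were in the set, AN7138, *can1*, the putative GABA transporter gene AN8990 and the arrestin gene *artA*, and 7 were held by 6. AN8990 lacked untreated 2 d replicate 1 and *artA* lacked untreated 2 d replicate 2 and MSB 3 d replicate 1. Of 9 genes of the cytoskeleton, organelles and lipids 4 were in the set. *yop1*, encoding a protein that shapes tubules of the endoplasmic reticulum, had the highest mean percentile of them, 47.9, with 62.1 and 72.9 in untreated 2 d, 56.8 in untreated 3 d replicate 2, and 12.6 and 35.0 in MSB 3 d. Its untreated values lay above both MSB values. AN3022, encoding a tubulin folding cofactor, had no peak in either untreated 2 d library and 24.0, 25.4 and 17.4 in the 3 that held it, while AN2877, an oxysterol-binding protein gene, had 44.9, 24.0 and 10.5.

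**Figure D5:**
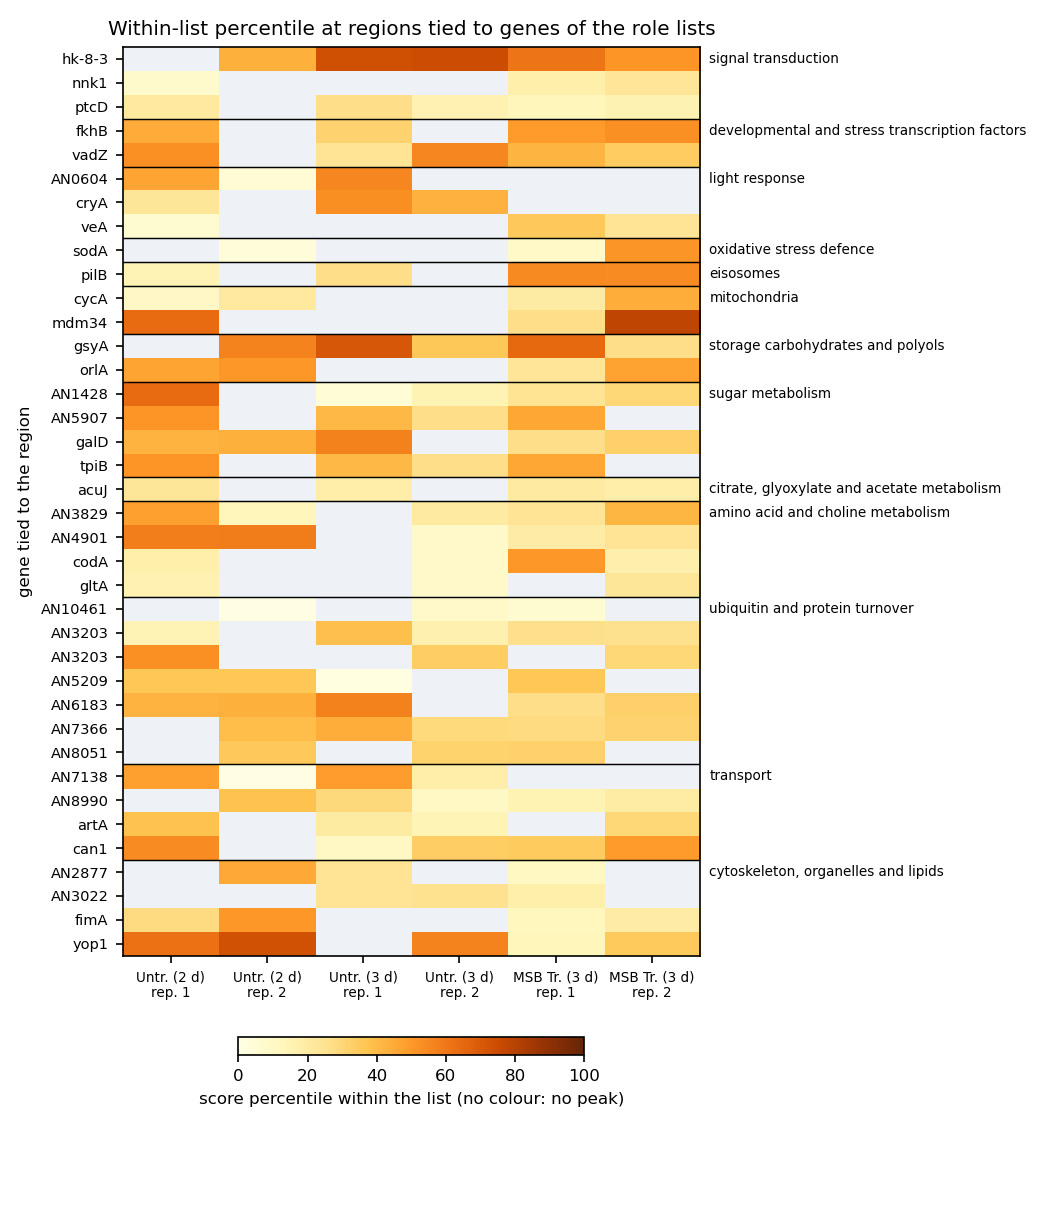
Within-list score percentile at the regions held by 3 to 5 libraries that were tied to genes of the role lists, with 1 row per gene and region and 1 column per library. Darker cells are higher percentiles, pale blue cells are libraries without a peak, and lines separate the lists. The column of untreated 3 d replicate 1, which lacked 80 of all 200 regions, is empty at all 4 amino acid and choline genes. Both MSB 3 d columns are empty at AN0604 and *cryA* but not at *veA*.

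Some further symbol-bearing genes were tied to the set. *hsp70* and *chz1*, a heat shock chaperone gene and a histone chaperone gene that share a region, had 58.0 and 4.95 in untreated 2 d, 19.0 in untreated 3 d replicate 2, and 37.0 and 79.8 in MSB 3 d, so replicates of the same condition were far apart. The region of TBP, the TATA-binding protein gene, had 22.9, 23.5, 39.0 and 57.2, with both MSB 3 d values above the 2 untreated ones. *bemA*, a cell polarity scaffold gene, had 11.5 in untreated 2 d replicate 1 and 43.0 and 21.2 in MSB 3 d. *pldA*, encoding phospholipase D, had 61.4, 13.2, 41.1 and 33.7, while *plaA* and *exo70*, a phospholipase gene and an exocyst gene that share a region, had values between 13.1 and 19.0. *arfB*, encoding a small GTPase of membrane traffic, had 1.84, 35.0 and 44.6, with 1 peak in each condition.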

How the data were processed

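Chromatin of FLAG-tagged AtfA was immunoprecipitated from conidia in 6 libraries, 2 for each of 3 conditions. Single-end reads (75 bp) were mapped by the authors on the FGSC A4 assembly of JGI MycoCosm using Bowtie2 2.2.4. They removed duplicates with Picard 3.4.0, made RPKM tracks with deepTools and called peaks with MACS2 at default settings, separately for each library. The deposited score of a peak is a whole number made on that library's track, with a scale that is not given in the sources used here. It was therefore ranked within its list only, as mean rank over list size in percent, and a list with more weak peaks raises the percentiles of all its stronger ones. The deposited columns for fold enrichment, p-value and q-value hold 0 and were not used. Widths, starts, ends and summit positions were taken in bp as deposited, and printed starts count from 1. No reads or depths were used, so their effect on the number of peaks called is unknown.

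Peaks of all lists were merged when they overlapped by at least 1 bp. A region's mean percentile is the mean over the libraries that hold it, each by its best peak. The 200 regions and all gene lists were chosen with earlier results of these data known. Percentiles and widths per library were compared with exact two-sided permutation tests by enumeration over libraries, adjusted by Benjamini and Hochberg over 9 comparisons, of which the 3 of the number of regions held are given without a test because presence chose the regions (Python 3.11.15, pandas 2.3.3, NumPy 2.4.6, matplotlib 3.10.9). Starts and ends also decided the merging, and only called peaks have a percentile or a width. The tests are therefore conditional on the choice of regions, and nothing was concluded from them. Merging, counting and the test were tested on simulated peaks.

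Genes were tied to regions through the distances between peak centres and transcription starts that the study's supplement lists for 502 genes. Of these, 246 were placed by at least 4 distances that fell on peak centres, and 182 between placed neighbours with a slack of 3000 bp. When each of the 246 was left out and placed again by its neighbours, 246 came back to the same region. The same distances were matched again within a narrower range, so a different region could hardly be returned. This result therefore does not show that the 246 placements are right. The placement of the 182 could not be checked. Of the genes named here, *cryA*, *veA*, *sodA*, *mdm34*, *nnk1*, *fkhB*, *fimA*, *gsyA*, *can1*, *artA*, *gltA*, *bemA* and *arfB* were placed between neighbours. So were AN0454, AN0604, AN2877, AN3022, AN7138, AN7139, AN8050, AN8051, AN8990, AN10461 and AN11039. The remaining 74 genes were not placed. The RefSeq table of another assembly served only for chromosome and gene order.

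Regions were named when held by 4 libraries and absent from 1 whole condition, as the 5 highest of those held by 3 libraries for each absent condition, as the 10 highest and 5 lowest held by 5 libraries, and when tied to a gene with a symbol in the study's text or its supplement, which is wider than the planned rule of genes in its results. Of these, not every region is described. Regions given as the extreme of a width, distance or range, and genes given by locus alone outside this rule, were named after their values were seen. Alternatives tried were merging within 100 bp, joining only peaks that share 50% or more of their lengths, keeping the 300 best-scored peaks per list, a replicate block and leaving out each library. No genome of the build of the peak lists was used, so the sequences of the regions and their motifs are not analysed here.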

Additional observations from a re-analysis of the deposited data

How the results depend on the processing

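The 200 regions became 199 when peaks within 100 bp were also merged, 221 when only peaks were joined that share 50% or more of their lengths, and 131 with the 300 best-scored peaks of each list. Of the 200 regions, 199, 194 and 66 overlapped a region of these sets. Without 1 library, regions held by 3 or 4 of the other 5 numbered between 140 and 166.

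With so few libraries no alternative could pass its test. With the 300 best peaks the width difference of MSB 3 d minus all untreated went from 20 to 47.5 bp, with the smallest p that 2 against 4 libraries allow (exact permutation p = 0.0667). Starts and ends entered the merge, so nothing was concluded from this p. The direction changed in these cases. With the 50% overlap the percentile difference of untreated 3 d minus untreated 2 d was 1.82, and with the 300 best peaks it was 1.46 and the width difference of this pair 25 bp. Leaving out 1 library gave values with no test. The number held then differed by -6 to 29.5 regions for MSB 3 d minus untreated 3 d, by -11.5 to 26.5 for untreated 3 d minus untreated 2 d and by 0.5 to 28.2 for MSB 3 d minus all untreated. The percentile differences of the same 3 comparisons ranged from -8.66 to 1.18, from -5.40 to 4.49 and from -5.67 to -2.38, and the width differences from 20 to 50 bp, from -20 to 5 bp and from 10 to 47.5 bp. Negative numbers held came without MSB 3 d replicate 1 (-6), untreated 2 d replicate 2 (-11.5) and untreated 3 d replicate 2 (-2). The percentile difference of untreated 3 d minus untreated 2 d became positive without untreated 2 d replicate 2 (2.57), untreated 3 d replicate 2 (4.49) and MSB 3 d replicates 1 and 2 (1.05 and 0.86). The cause was not tested.

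The labels do not say whether libraries of the same replicate number belong together, so replicate numbers were not taken as pairs. The replicate differences in presence had correlations of -0.05, -0.21 and -0.04 between conditions over 707 regions, which cannot settle this. With a replicate block the differences were the same by construction (16.5, 11.5 and 22.25 for the numbers held), and the exact permutation p was 1, 1 and 0.333 for the percentiles and 0.5, 1 and 0.444 for the widths. The lists give no depth, so an absence may be a peak just under the caller's threshold.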
